A study of Drosophila melanogaster with 8 samples.

Results

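The basement membrane genes are a set of 9 genes whose products build, stabilise or cross-link the extracellular sheet under fly epithelia: the collagen IV chains Col4a1 and vkg, the laminin chains LanA, LanB1 and LanB2, trol, Ndg, SPARC and Pxn. They were chosen by name, as every probe set that the array annotation assigns to 1 of these genes alone. This gave 17 probe sets for 9 of the 11982 genes on the array, with 8 probe sets for trol, 2 for Pxn and 1 for each other gene. No probe set shared with another gene named a member. A probe set of veg, a gene that the annotation lists under a synonym of vkg but with another gene number, was left out (r with vkg over the 8 arrays -0.44).

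A basement membrane is assembled from separate networks. Laminin, a trimer of an alpha, a beta and a gamma chain, binds receptors on the cell surface, collagen IV forms a covalently cross-linked mesh that gives the sheet its stiffness, and nidogen and the proteoglycan perlecan bind to both. In the fly ovary the follicle cells secrete most of the sheet that wraps each egg chamber and shapes it as it grows, and blood cells and fat body supply collagen IV to many other organs.

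Whole ovaries of virgin Drosophila melanogaster females were profiled on 8 Affymetrix arrays, with RNA from about 100 pooled ovary pairs per array. The labels name 4 het and 4 null arrays. In each label, replicates 1 and 2 carried the chk2 mutant allele P30 and replicates 3 and 4 the allele P6, with a wild-type chk2 copy in every group according to the methods. By their labels, het females were otefinPk, Chk2P30 / CyO or otefinPk, Chk2P6 / CyO, and null females were otefinPk, Chk2P30 / otefinG or otefinPk, Chk2P6 / otefinG. The methods place the allele B279G, not PK, on the P30 chromosome, and they state that neither ote allele makes protein. The labels give an age of 4 to 6 hours after eclosion, whereas the methods give 1 day. All groups therefore lacked 1 chk2 copy, and no group was wild type for both genes. Otefin is a LEM domain protein of the nuclear lamina, and Chk2 is a kinase of the DNA damage checkpoint. The het females carried the balancer chromosome CyO, so Col4a1, vkg and LanB1 on chromosome arm 2L and Ndg on 2R lie on the chromosome that differs between the labels by construction. The others lie elsewhere, with LanA, LanB2 and Pxn on 3L, SPARC on 3R and trol on X.

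Values are log2 signals, in which a difference of 1 is a factor of 2, and signals of different probe sets cannot be ranked against each other. Medians over all probe sets were 5.61 to 5.72 and pairs of arrays correlated at r of 0.957 or more. The signal of Ote, the targeted gene, was 7.27 in the library labelled het 2, below all other arrays, against 9.26 to 9.66 in the other het arrays and 7.48 to 8.66 in the null arrays. Samples are therefore named by their labels, and the counts for the labels, the backgrounds and the pairs of genes are also given without het 2. The labels give no culture or batch beyond the replicate number, so p-values measure the spread between these samples. A bulk signal cannot tell fewer cells of a type from less RNA per cell.

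The collagen IV chains had strong signals and wide swings between arrays. Col4a1, the alpha 1 chain, measured 11.01, 11.05, 12.38 and 11.34 in het 1 to 4 and 11.02, 9.99, 12.80 and 10.25 in null 1 to 4. The second chain, encoded by vkg (viking), measured 10.31, 10.50, 11.61 and 10.67 in het 1 to 4 and 10.34, 9.47, 12.21 and 9.67 in null 1 to 4. For both chains null 3 and het 3 were the highest arrays and null 2 and null 4 the lowest, so the null arrays spanned the het arrays on both sides. The mean of Col4a1 was 11.44 ± 0.64 over the 4 het arrays and 11.01 ± 1.27 over the 4 null arrays (± SD), and that of vkg was 10.77 ± 0.58 and 10.43 ± 1.25.

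In the laminin chains null 2 and null 4 were again the lowest arrays, and null 3, het 3 and het 4 the highest, in an order that differed between the chains. LanA, the alpha chain, measured 11.13, 11.28, 12.15 and 11.92 in het 1 to 4 and 11.59, 10.12, 12.08 and 10.48 in null 1 to 4. LanB1, the beta chain, measured 10.08, 10.25, 10.64 and 10.70 in het and 10.40, 9.39, 10.59 and 9.16 in null. LanB2, the gamma chain, measured 10.32, 10.59, 11.59 and 11.35 in het and 10.83, 9.77, 11.97 and 9.91 in null. In each chain null 2 and null 4 lay below all het arrays, while null 1 and null 3 lay within or above their range.

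The genes for the proteins that bind or modify the networks varied in different ways. The probe set with the highest mean for trol, which encodes the proteoglycan perlecan, measured 9.88, 9.86, 10.70 and 10.81 in het 1 to 4 and 10.25, 9.09, 10.86 and 9.30 in null 1 to 4, again with null 3, het 3 and het 4 highest and null 2 and null 4 lowest. SPARC, a collagen-binding glycoprotein, measured 9.87, 9.90, 10.37 and 10.14 in het and 10.13, 10.44, 11.02 and 8.78 in null. It differed from the other members in null 2, where SPARC was the second highest of its 8 arrays and Col4a1, vkg, LanA, LanB2 and trol were at their lowest.

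Pxn, which encodes peroxidasin, the enzyme that cross-links collagen IV, measured 6.78, 7.25, 7.86 and 7.01 in het 1 to 4 and 7.80, 6.90, 9.32 and 6.44 in null 1 to 4. Its value in null 3 was 1.90 above its own mean, the largest deviation of any member in any array. The other Pxn probe set, with a mean of 4.44, did not follow the first (r = -0.44). Ndg (nidogen) was dim, at 4.97, 5.54, 4.96 and 5.13 in het and 5.25, 4.90, 5.47 and 4.68 in null, and it differed from the rest in being highest in het 2. Signals this low are close to the part of the scale where RMA compresses differences. In all, 14 of the 17 probe sets had a mean of at least 6. The 3 below it were Ndg, the other Pxn probe set and 1 of trol.

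**Figure D1:**
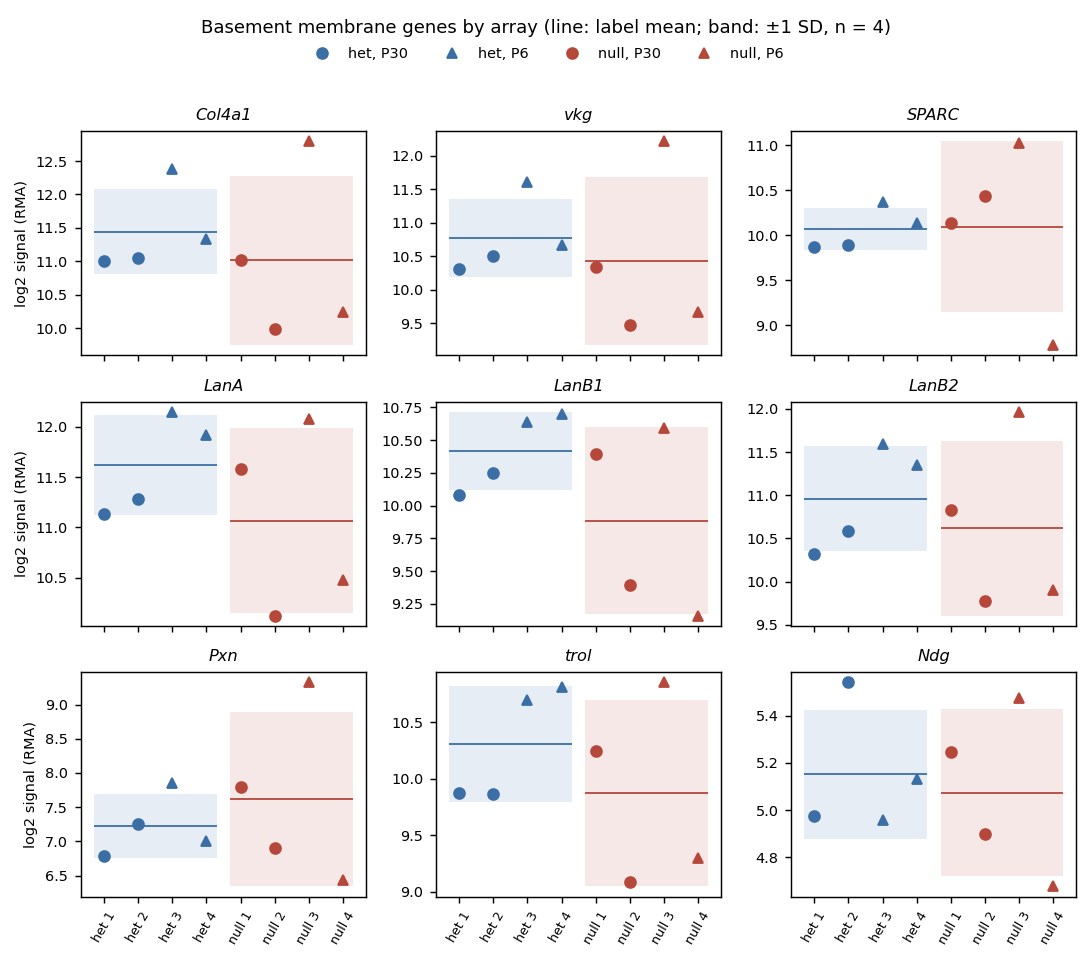
Log2 signal (y axis) of each of the 9 genes in each of the 8 arrays (x axis), with blue for het, red for null, circles for the P30 and triangles for the P6 background; lines are label means and bands ±1 SD (n = 4). The null arrays straddle the het arrays in most panels, with null 3 high and null 2 or null 4 low.

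The spread within the labels was larger than most differences between them. With 1 probe set per gene, the SD was larger in the null than in the het arrays for 9 of 9 genes (0.36 to 1.27 against 0.24 to 0.64). These genes share the same 8 arrays and are not separate observations of spread. The trol probe set 1640050_at went the other way (0.48 in null, 0.75 in het). The share over all probe sets is not given here, so this is not known to be particular to these genes. Over all 8 arrays the median SD of the 17 member probe sets was 0.581, against 0.248 over all probe sets, and among probe sets with a mean of at least 6 it was 0.63 for 14 member probe sets against 0.403 for 8870. The array means of the 9 genes, each centred on its own mean, were 1.06 in null 3, 0.60 in het 3, 0.25 in het 4, 0.09 in null 1, -0.07 in het 2, -0.27 in het 1, -0.75 in null 2 and -0.91 in null 4. In null 3, 9 of 9 genes lay above their own mean and 6 were at their highest. In null 4 none lay above its mean and 4 were at their lowest, and in null 2 another 5 were at their lowest.

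**Figure D2:**
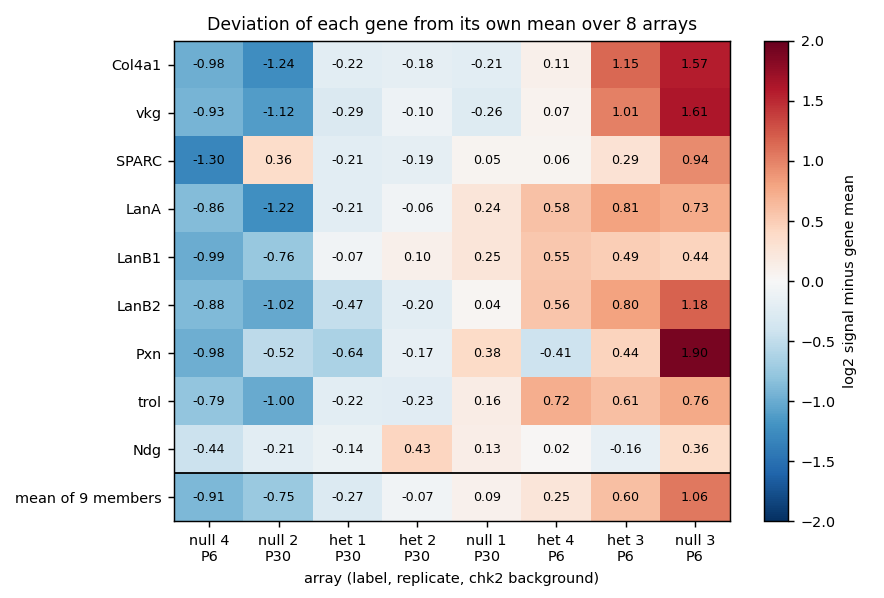
Deviation of each gene from its own mean over the 8 arrays, in log2 units (colour and printed value), with arrays ordered from left to right by the mean of the 9 genes. Most columns are nearly uniform in sign, from null 4 with a mean of -0.91 to null 3 with 1.06. Values against their column include SPARC in null 2 (0.36), Ndg in het 2 (0.43), Pxn in het 4 (-0.41), and Col4a1 (-0.21) and vkg (-0.26) in null 1.

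The members varied together over the arrays. All 36 pairs of genes had a positive Pearson r over the 8 arrays (0.50 to 0.997, median 0.784). When the arrays were permuted in all possible orders (exact, two-sided), 19 pairs had p under 0.05 and 17 passed after Benjamini-Hochberg adjustment over the 36 pairs, and 19 passed with Spearman's rho. The 17 pairs at or above 0.8 were 47.2% of the members' pairs. The same share was 3.72% of all gene pairs, 7.59% among genes with a mean of at least 6 and 8.92% among genes with an SD of at least 0.5, and the median r of all gene pairs was 0.0010. With the means of the 4 groups of label and background removed, all 36 pairs stayed positive (median r 0.89, lowest 0.64). Each group has 2 arrays, so the remaining values mirror each other within a group. The widest gap within a group was that of null 3 and null 4 (members' mean 1.06 and -0.91). These r therefore rest largely on that pair and cannot show co-variation within every group.

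Collagen IV, the 3 laminin chains and trol, by its probe set with the highest mean, formed a tight group, with 15 pairs at 0.793 to 0.997 (median 0.942). This grouping was not among the planned tests. It leaves out SPARC, Ndg and Pxn, which had lower r with some or all of these genes, so its median is a description only. Col4a1 and vkg, which are next to each other in the gene order of 2L and encode partner chains, had r = 0.997 (rho = 1.0, exact permutation p = 2.48e-05, the smallest that these orders can give, adjusted p = 0.000893) and 0.994 without the 2 arrays farthest from the median of Col4a1. Their log2 difference was nearly constant, between 0.51 and 0.77 over the arrays (SD 0.088). Among the laminin chains, LanA had r = 0.958 with LanB2 (exact permutation p = 0.000174, adjusted p = 0.00156) and 0.953 with LanB1 (adjusted p = 0.00368), and LanB1 had 0.892 with LanB2 (adjusted p = 0.00734). The chains were less constant against each other than the collagen chains, with an SD of the log2 difference of 0.26 for LanA and LanB1, 0.23 for LanA and LanB2 and 0.38 for LanB1 and LanB2. The last difference was at its extremes in null 3 (-1.38) and het 1 (-0.24). For trol, r was 0.983 with LanA (exact permutation, adjusted p = 0.00164) and 0.969 with LanB2.

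SPARC and Ndg followed more loosely. Pairs with SPARC had r of 0.51 to 0.78 and pairs with Ndg 0.50 to 0.65, and none of these passed the adjusted test. Some other pairs did not pass either. Pxn had r = 0.682 with LanA, 0.625 with LanB1 and 0.683 with trol (exact permutation, adjusted p 0.0915 to 0.126). For vkg with LanB1 r was 0.793 (adjusted p = 0.0531). The pair of Col4a1 and SPARC had r = 0.632 (rho = 0.476, exact permutation p = 0.0946, adjusted p = 0.126). It was 0.905 without null 2, 0.397 without null 3 and 0.228 without the 2 arrays farthest from the median of Col4a1, so it rested on single arrays. The log2 difference of Col4a1 and SPARC ran from -0.45 in null 2 to 2.01 in het 3 (SD 0.74). Over all pairs, leaving out the 2 farthest arrays lowered the median r to 0.69 and left 30 of 36 above 0, and the 6 negative pairs each held SPARC or Ndg. The lowest was SPARC with Ndg, at -0.60.

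**Figure D3:**
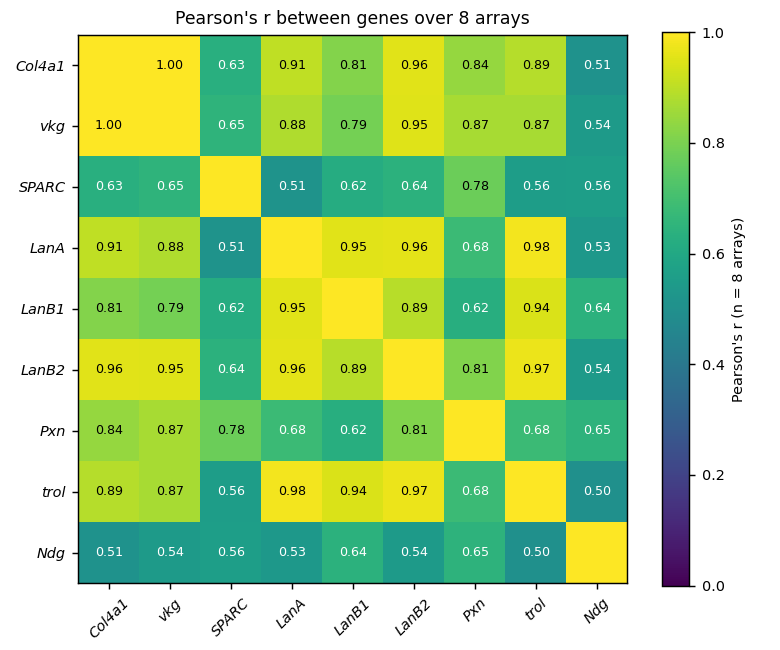
Pearson's r over the 8 arrays for each pair of the 9 genes (colour and printed value, rounded to 2 decimals). Collagen IV, laminin and trol form a block with a median of 0.942, while the rows of SPARC and Ndg stay at or below 0.78.

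Probe sets of one gene did not always agree. Of the 8 for trol, those named 1625116_at, 1640223_a_at and 1630978_s_at followed the one with the highest mean, 1641442_a_at, at r = 0.87, 0.90 and 0.82. The pair 1640050_at and 1637281_at followed each other (r = 0.94) and not that one (-0.20 and -0.31). Both were highest in het 2 (8.27 and 7.57) and lowest in null 3 (6.29 and 5.81), where most members were highest. Which transcripts of trol each probe set reads was not tested. The remaining 1628566_at and 1640189_at had r = 0.20 and 0.48 with 1641442_a_at and varied little, between 6.02 and 6.56 and between 5.89 and 6.44.

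**Figure D4:**
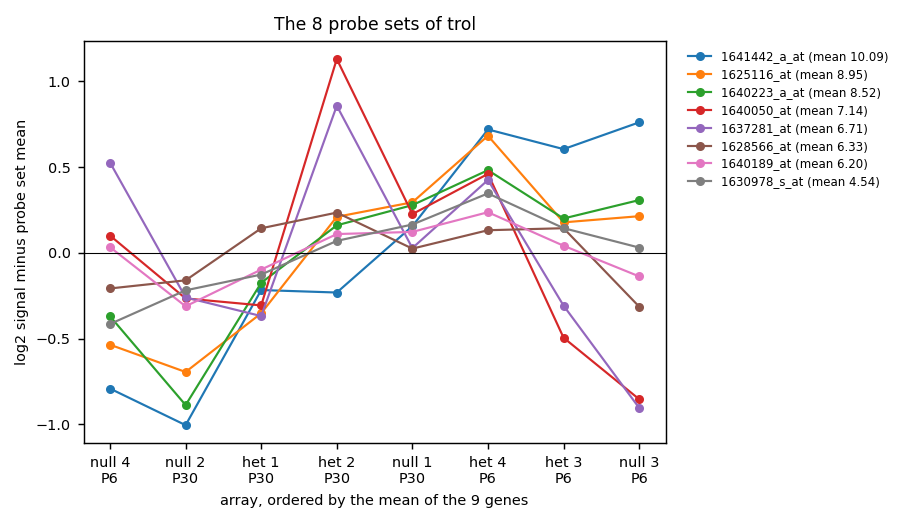
Deviation of each of the 8 trol probe sets from its own mean over the arrays (y axis, log2 units), with arrays on the x axis in the order of the members' mean. The lines of 1641442_a_at, 1625116_at, 1640223_a_at and 1630978_s_at lie higher on the right than on the left, whereas 1640050_at and 1637281_at peak in het 2 (8.27 and 7.57 in log2 signal) and are lowest in null 3.

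The comparison of null with het arrays asked whether losing otefin with 1 chk2 copy left changed the RNA of these genes. Most members were lower on average in the null arrays, and for none of the 9 genes did the difference exceed the spread between arrays. In limma over 18769 probe sets, 7 of 9 genes were lower in null (51.8% of all probe sets were), with a median difference of -0.35 against -0.0072 over all probe sets. None of the 17 member probe sets passed a 2-fold change with an unadjusted p under 0.05, the methods' threshold, which 0.149% of all probe sets passed, and none passed an adjusted p of 0.05, nor did any other probe set (0%). At an unadjusted p under 0.05 alone, 1 of 17 passed, against 2.25% of all.

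The largest differences were those of 2 laminin chains. LanA differed by -0.55 (SE 0.46, 95% interval -1.62 to 0.51, exact permutation p = 0.343) and LanB1 by -0.53 (SE 0.35, -1.33 to 0.27, exact permutation p = 0.286). The difference was -0.34 for LanB2 (-1.54 to 0.86) and -0.44 for trol (-1.43 to 0.56). The collagen chains differed by -0.43 for Col4a1 (SE 0.62, -1.87 to 1.01) and -0.35 for vkg (SE 0.60, -1.74 to 1.05), and Ndg by -0.08 (-0.56 to 0.40; 0.053 without het 2). Pxn was 0.39 higher on average in null (-0.98 to 1.76), and SPARC differed by 0.03 (-0.98 to 1.03). All these intervals include 0, and those of LanA, LanB1, LanB2, trol, Col4a1 and vkg also include a 2-fold fall. Those of Col4a1, vkg, SPARC and Pxn include a 2-fold rise. Exact two-sided permutation tests over the 8 arrays gave p of 0.286 to 0.943 for the 9 genes, where 4 against 4 arrays can reach 0.0286, and limma's adjusted p was 1 for each.

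At an unadjusted p the exception was 1 probe set of trol, which no longer passed when dim probe sets were left out of the fit or within P30 alone. The probe set 1628566_at measured 6.47, 6.56, 6.47 and 6.46 in het 1 to 4 and 6.35, 6.17, 6.02 and 6.12 in null 1 to 4, so that the labels did not overlap. It was the only 1 of 17 to do so, against 1.82% of all probe sets (1.11% with null lower). The difference was -0.33 (SE 0.098, 95% interval -0.55 to -0.10, exact permutation p = 0.0286, adjusted p = 1 by limma), a factor of 1.255. All 8 trol probe sets had lower means in null, but they read 1 gene in the same arrays, and 1628566_at was not one of those that followed the members' shared pattern (r = 0.03 with the mean of the other 8 genes).

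Single arrays of either label moved the averages. Without null 3, 9 of 9 genes were lower in null, with a median of -0.77, and Col4a1 passed the 2-fold threshold (-1.03, SE 0.40, adjusted p = 0.957 in limma). In that setting 64 of 18769 probe sets passed. Without null 4 the median was -0.10, with 6 genes lower and 3 higher, and without null 2 it was -0.09. It was -0.56 without het 1, -0.47 without het 2, -0.13 without het 3 and -0.27 without het 4. Within the P30 background 7 of 9 genes were lower (median -0.20) and within P6 also 7 (median -0.35), with 2 arrays in each label. The interaction of label and background was called for none of 17 member probe sets (0.277% of all), and none had an unadjusted p under 0.05 (1.13% of all). For the 9 genes the interaction ran from -0.76 to 0.30, with SEs of 0.47 to 1.32. It also turned on single arrays, from a median of -1.24 without null 3 to 0.62 without null 4, each leaving a single array in the null P6 group. SPARC was the gene whose label difference had opposite signs in the 2 backgrounds with the widest gap, 0.40 in P30 and -0.35 in P6, and its interaction was -0.76 (SE 0.96, 95% interval -3.11 to 1.60).

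**Figure D5:**
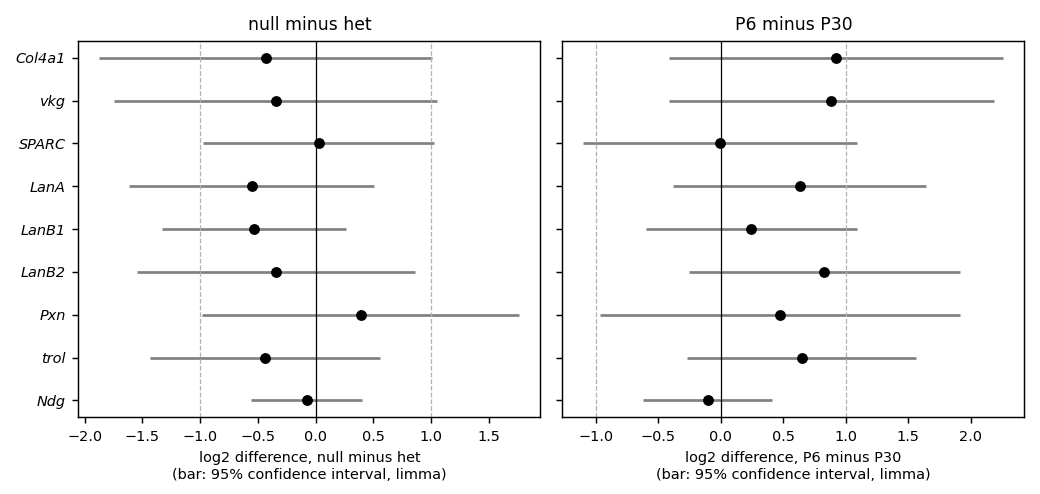
Difference of the means on the log2 scale (x axis) for each of the 9 genes, null minus het on the left and P6 minus P30 on the right; bars are 95% confidence intervals from limma and dashed lines mark a 2-fold change. Every interval includes 0, and 7 of 9 points lie below 0 on the left and above 0 on the right.

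The comparison of the P6 with the P30 background asked whether the 2 chk2 chromosomes differed at these genes. Averages were higher in P6 for 7 of 9 genes (45.1% of all probe sets were), with a median of 0.63 against -0.02 over all, and again no member passed the test. With the label in the limma fit, none of 17 member probe sets was called at a 2-fold change with unadjusted p under 0.05, against 1.64% of all (209 higher and 98 lower in P6, and 128 higher and 138 lower after cyclic loess between arrays). None had an unadjusted p under 0.05, against 9.74% of all, and no probe set at all passed an adjusted p of 0.05. Col4a1 was 0.92 higher in P6 (SE 0.57, 95% interval -0.42 to 2.26), vkg 0.88 (SE 0.55, -0.42 to 2.19), LanB2 0.83 (SE 0.46, -0.26 to 1.91), trol 0.65 (-0.27 to 1.57) and LanA 0.63 (-0.39 to 1.65). The values were 0.48 for Pxn, 0.24 for LanB1, -0.0068 for SPARC and -0.11 for Ndg. Exact permutation within the labels gave p of 0.167 to 1.0, where 0.0556 is the smallest possible. In no member probe set did the backgrounds fail to overlap, against 5.75% of all probe sets (2.64% with P6 higher).

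Single null arrays moved this comparison in both directions. The median fell to 0.35 without null 3, where Col4a1 was 0.39 and vkg 0.35, and to 0.38 without null 2. Without null 4, the P6 array in which the members were lowest, 4 member probe sets passed the threshold, those of Col4a1 (1.41, SE 0.45), vkg (1.36, SE 0.43), LanB2 (1.28, SE 0.29) and trol (SE 0.28), and SPARC moved to 0.52 (SE 0.14). Their adjusted p was 0.157 to 0.172 in limma, and 672 of 18769 probe sets were called without this array. Without het 2 alone no member passed (median 0.60). With het 2 and null 4 both left out, a pair that earlier results of these data had set apart, 5 passed and 9 of 9 genes were higher in P6 (median 1.07), against 558 of 18769 probe sets called in all.

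Genes that work with the basement membrane were read from 4 lists, each over the genes with a probe set of their own. Other matrix genes, 11 of 13 listed, were higher in null for 3 and lower for 8, and none passed the threshold. The 3 with the smallest p were loh (lonely heart), an ADAMTS-like matrix protein (-0.29, SE 0.16), dpy, the giant apical matrix protein dumpy (0.18, SE 0.11), and tnc, the integrin ligand tenectin (-0.19, SE 0.13), and the adjusted p of each was 1 in limma. Papilin (Ppn), tiggrin (Tig) and wing blister (wb), the second laminin alpha chain, followed the members' mean over the arrays at r = 0.953, 0.947 and 0.928, and the list's mean did at 0.809. They were the only 3 of the 11 at 0.8 or more. The median r of the list was 0.436, with Tsp at -0.026, dpy at 0.050 and loh at 0.274. These correlations are descriptions over the same 8 arrays.

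Receptors and adhesion genes, 16 of 18 listed, were higher in null for 10 and lower for 6, with a median of 0.03 and none called. The gene scb, an integrin alpha chain, measured 7.52 to 7.86 in the het and 7.99 to 8.62 in the null arrays, so that all null arrays lay above all het arrays (1.82% of all probe sets did not overlap). The difference was 0.60 (SE 0.19), with an unadjusted p under 0.05 and an adjusted p of 1 by limma, and it stayed below 2-fold. It did not follow the members (r = 0.0154). The other 2 genes by p were the glypican dlp (-0.21, SE 0.13) and the integrin alpha chain ItgaPS4 (0.42, SE 0.30). Single receptors stood at both ends of the likeness to the members, with rhea (talin) at r = 0.917 and the integrin beta chain Itgbn at -0.939.

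Genes for making and exporting collagen, 9 of 12 listed, were lower in null for 8 and higher for 1 (median -0.12), with none called. The 3 with the smallest p were Plod, the lysyl hydroxylase (-0.18, SE 0.16), Tango1, the receptor that loads collagen for export from the endoplasmic reticulum (-0.47, SE 0.59), and Pdi (-0.10, SE 0.18), whose signal was at 3.36 to 4.22. Between backgrounds, 3 of the 9 passed the threshold, all higher in P6: Tango1 (1.19, SE 0.45), the COPII coat gene Sec31 (1.09, SE 0.39) and Crag, which directs basement membrane proteins to the basal side of follicle cells (1.03, SE 0.27), against 1.64% of all probe sets. Crag fell below 2-fold without het 2 (0.94), an alternative added after seeing the data. Their adjusted p was 0.512 in limma. The genes of this list ran both ways against the members' mean, with a median r of 0.507 and 2 of 9 at 0.8 or more. These were Sec31 at r = 0.873 and PH4alphaEFB, a prolyl hydroxylase of collagen, at 0.840. In contrast, strat was at -0.888, Rab10 at -0.755 and PH4alphaMP at -0.406. Of the remodelling genes, 8 of 9 listed, 4 were higher and 4 lower in null (median -0.01) and none was called. The values were 0.21 for the protease inhibitor Reck (SE 0.26), -0.24 for the lysyl oxidase Loxl1 (SE 0.33) and -0.26 for the ADAMTS protease stl (SE 0.42).

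Markers of cell types that the samples could hold were compared with the members over the arrays. Follicle cell markers, 10 of 12 listed, had a mean of 8.24 to 10.3 in het and 8.48 to 10.2 in null, and all 10 were higher on average in P6 (median 0.78, against 45.1% of all probe sets higher). Of these, 3 passed the threshold (1.64% of all), the eggshell genes dec, psd and Vm26Aa (2.65, 2.05 and 2.02). Their differences were 1.83, 1.67 and 1.42 without het 2, an alternative added after seeing the data. The list's mean had r = 0.614 with the members' mean, and its single genes ran from 0.268 for dec and 0.323 for Vm26Aa through 0.575 for the regulator slbo to 0.834, 0.854 and 0.864 for the regulators eya, cas and tj. The signal of eya was 9.37 to 10.7, while tj (4.84 to 6.05) and slbo (3.76 to 5.05) were dim. The blood cell list (11 of 11) had r = -0.208 and ranges of 6.96 to 7.18 in het and 6.93 to 7.36 in null, and its genes ran both ways, from -0.810 for atilla, -0.661 for crq, -0.464 for NimC1, -0.428 for Sr-CI and -0.309 for He to 0.773 for Hml, 0.789 for PPO1 and 0.797 for PPO2. The fat body list (5 of 8) had r = -0.058, with means of 8.86 to 9.85 in het and 8.63 to 9.73 in null. The muscle list (10 of 13) had r = 0.272, with 10.5 to 11.1 in het and 10.2 to 11.1 in null. Its genes were mixed, with a median r of 0.043. Prm was at 0.967, Obsc at 0.934 and sls at 0.855. On the other side were bt at -0.594, Mlc2 at -0.517, Mf at -0.400, Mlc1 at -0.354 and TpnC73F at -0.256. The germline, trachea, midgut and salivary glue lists had r of -0.154, 0.433, -0.110 and -0.007. The mean of the glue list was 9.8 in het 1 and 9.1 in null 1, both of the P30 background, and 4.3 to 5.5 in the other arrays. Of the midgut genes, 8 of 8 were higher on average in null (51.8% of all probe sets were lower) and 4 passed the threshold (0.149% of all). The part of any of these cell types in the members' variation was not tested.

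Control signals for RNA quality and the span of the genes were set beside the members' mean as well. The difference of the 5′ and 3′ signals of the GAPDH control ran from -2.09 to -1.55, highest in null 3, and had r = 0.518 with the members' mean. For the actin and eIF-4a controls r was 0.210 and 0.336, and for the 18S rRNA control it had the other sign, at -0.328. Genes of longer span followed the members more closely. Over 4 equal groups of genes by span, among those with a mean of at least 6, the median r with the members' mean was -0.50, 0.07, 0.33 and 0.40 from the shortest to the longest. All members but SPARC, in the third group, and the dim Ndg were in the longest of these groups, in which 16.7% of genes had r of at least 0.8. Pairs of genes within that longest group had a median r of 0.133, with 8.69% at or above 0.8, and within the shortest group these were 0.257 and 13.2%. Among the 8 members with a mean of at least 6, which include SPARC of the third group, 60.7% of 28 pairs were at or above 0.8. The part of RNA quality or span in the members' pattern was not tested.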

How the data were processed

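The deposited values are log2 signals that the authors computed from 8 Affymetrix Drosophila Genome 2.0 arrays with RMA in Affymetrix Expression Console 1.4.1, per the labels and the submitters' processing notes (background subtraction, quantile normalization and summary per probe set). RMA shrinks differences of dim probe sets, and quantile normalization gives every array nearly the same distribution. RNA was amplified before labelling. Of 18952 probe sets, 183 controls were left out and 18769 tested; 13647 name 1 gene, 402 several and 4720 none. Gene names came from the gene number (13544), the symbol (6) or the original annotation alone (97). Where a gene had several probe sets, that with the highest mean over the arrays represents it. Limma 3.58.1 (R 4.3.3) was fitted to all probe sets with Benjamini-Hochberg adjustment, null against het without covariate, and P6 against P30 with the label. Scripts were tested on simulated data. Pairs of genes were tested by exact permutation. Text names all members, up to 3 genes per list with the smallest unadjusted p null against het, and the 6 genes most like the members' mean; other list genes were named after their values were seen. The members and lists were chosen with earlier results of these data known. Intensities before RMA were not used here, and array number limits precision. Alternatives were median centring, cyclic loess, a filter at a mean of 6, array weights, a block for background or replicate, each background alone and arrays left out.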

Additional observations from a re-analysis of the deposited data

Results flagged for a closer look

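The trol probe set 1628566_at was flagged because, among its 4 het arrays, het 2 (6.56) stood apart from the other 3 (6.46 to 6.47), with a gap of 0.886 of the group's whole range, above the critical value of Dixon's test for 4 values. It was 1 of 34 groups of 4 arrays examined, and chance marks about 1 in 20. The range in question is small, and the label difference of this probe set was -0.28 to -0.39 when each array was left out in turn.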

How the results depend on the processing

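The number of pairs passing (14 to 23) and the median r (0.712 to 0.862) stayed near their values when each array was left out, although single pairs crossed the threshold. Counts of probe sets past 2-fold and unadjusted p depended on the setting. For null against het (28) the count was 15 with an unmoderated test, 100 at 1.5-fold, 132 without het 2 and null 4 together, 63 with array weights, 46 within P30 alone and 49 within P6 alone, and 13 to 98 without single arrays, of which 0 to 1 were members. For P6 against P30 (307) it was 191, 976 and 558 under the same first 3 settings, and 148 to 672 without single arrays, of which 0 to 4 were members. The members among them numbered 5 without het 2 and null 4, and 3 with array weights (Col4a1, vkg and LanB2). Without het 2 alone the count was 54 for null against het and 215 for P6 against P30, with 0 members in each. In that setting 17 pairs of members passed. The interaction (52) called 75 to 1137 without single arrays, with 0 to 1 members.

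Some differences changed sign. For null against het these were SPARC (-0.35 in P6 alone), the dim Pxn probe set (-0.0034 in P30 alone), the trol probe sets 1640050_at (0.016 with array weights) and 1630978_s_at (0.0018 in P30 alone), and Ndg (0.19 without het 2 and null 4, 0.091 with array weights, 0.031 in P6 alone). For P6 against P30 they were SPARC (0.054 with median centring, 0.56 without het 2 and null 4, 0.36 with array weights) and Ndg (0.24 and 0.016 under the last 2). Without null 3 the Pxn probe set with the higher mean changed sign in both comparisons. It went from 0.39 to -0.18 for null against het and from 0.48 to -0.11 for P6 against P30. Without single arrays, null minus het ran from -0.28 to 0.46 for SPARC, from -0.18 to 0.78 for Pxn and from -0.21 to 0.055 for Ndg, and P6 minus P30 from -0.38 to 0.52, from -0.11 to 1.04 and from -0.29 to 0.032. The cause of these shifts was not tested.

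The replicate numbers were not treated as pairs, since same-numbered deviations correlated at -0.002, 0.38, 0.536 and -0.099, not all above 0.1, and with it as a replicate block 39 probe sets, 0 of them members, were called for null against het. Among limits, 4 arrays per label give intervals that include a 2-fold fall for most members and a 2-fold rise for some. Dim probe sets such as those of Ndg have compressed differences.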

Other observations

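Among 13630 probe sets that name a single gene outside the members, 205 (1.5%) had r of at least 0.9 with the mean of the 9 basement membrane genes over the 8 arrays. Counted over single probe sets, the 6 nearest were Prm (0.989, from a second probe set that is dimmer than the one with 0.967), tim (0.986), Mtr4 (0.985), Ogdh (0.985), l(1)G0020 (0.978) and wake (0.977). Prm encodes paramyosin of muscle thick filaments, tim the circadian protein timeless, Mtr4 an RNA helicase of the nuclear exosome and Ogdh a subunit of the oxoglutarate dehydrogenase of mitochondria. Prm measured 8.88, 9.24, 9.87 and 9.60 in het 1 to 4 and 9.38, 8.24, 10.69 and 8.38 in null 1 to 4. It was highest in null 3 and lowest in null 2 and null 4, as most members were. None of the 6 is a matrix gene.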
